A study of Mus musculus with 2 samples.

Results

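Monocytes and the macrophages that arise from them are the phagocytes that engulf and digest microbes and dying cells, and 10 genes that are widely used to recognise them were followed here in sorted hematopoietic stem cells (HSCs). The genes were *Lyz1*, *Lyz2*, *Ccr2*, *Cx3cr1*, *Ctss*, *Fcgr3*, *Cd14*, *Cd68*, *Ly86* and *Mpeg1*. They were taken by gene symbol, and all 10 were found among the 24421 gene symbols counted. HSCs renew themselves and give rise to every blood lineage, monocytes included, and transcripts of mature lineages are known to be present at low levels in stem and progenitor cells. Several of the 10 are not restricted to monocytes. Lysozyme and *Fcgr3* transcripts are also made by neutrophils, and *Ctss* is made by many antigen-presenting cells.

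RNA-seq was performed on 2 libraries of HSCs on the C57BL/6 background, 1 for each genotype. The WT library came from Cre-ERT Ezh2 +/+ cells and the other, labelled Ezh2 KO, from Cre-ERT Ezh2 Δ/Δ cells. Both genotypes carried 1 copy of the tamoxifen-inducible Cre transgene, whose promoter and insertion site are not given in the sources used here. For each genotype, CD45.2 bone marrow was placed in lethally irradiated CD45.1 hosts, which then received tamoxifen daily for 5 days (100 µl at 10 mg/ml), and 1 month later Flt3- CD34- CD48- CD150+ cells of the Lin- c-kit+ Sca-1+ (LSK) fraction were sorted. The sort markers listed in the labels do not include the CD45.2 donor antigen, and the ages and numbers of animals behind each library are not given there. The comparison asks which genes differ in HSCs after loss of *Ezh2*, the main enzyme of Polycomb repressive complex 2.

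With 1 library per genotype there is no replicate. No p-value was computed, and every interval below covers counting error only, not the spread between animals or libraries. PCR copies were not marked by molecular identifiers and cannot be told from separate molecules. The intervals treat each read as separate and can therefore be too narrow. Gene counts totalled 5763118 in WT and 4157280 in the KO-labelled library. *Ezh2* had 166 and 129 counts (log2 ratio 0.08), so the count over the whole gene did not fall, and a total over the gene does not separate deleted from retained exons. The second library is therefore called the KO-labelled library. The 2 libraries also differed at sex-linked genes. *Xist* had 801 and 4 counts, and *Ddx3y*, *Eif2s3y*, *Kdm5d* and *Uty* had 0 counts in WT and 106 to 275 in the other, so genotype and the sex of the cells cannot be told apart. The 15 HSC and sort markers were all tested and lay within 2-fold between libraries, as did 11479 of all 12588 genes tested. Such likeness does not by itself show that the cells were HSCs. *Kit*, which encodes the c-kit antigen of the sort, had 6062 counts in WT and 4394 in the KO-labelled library. *Slamf1*, which encodes the CD150 antigen of the sort, had 520 and 248 counts (log2 ratio -0.62, -0.85 to -0.41). Ratios are KO-labelled library over WT. The intervals of 8 of the 15 excluded equality, 3 above it and 5 below, beside 40.0% of all genes tested. Of the antigens the sort selects against, *Cd48* had 12 and 11 counts (log2 ratio 0.29, -1.01 to 1.62). *Cd34* had 957 and 829 (log2 ratio 0.23, 0.10 to 0.37). *Flt3*, which is not among the 15, had 98 and 140 (log2 ratio 0.95, 0.57 to 1.34), within 2-fold with an interval above equality.

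Lysozyme is an enzyme that cleaves the peptidoglycan of bacterial cell walls. The mouse has a pair of neighbouring lysozyme genes, *Lyz2*, known as the myeloid form, and *Lyz1*, known as the form of intestinal Paneth cells. Both are protein coding, have 4 exons and lie on the minus strand of chromosome 10 in mm10 (GRCm38), *Lyz2* at 117277331 to 117282321 and *Lyz1* at 117287797 to 117292868. Because their transcripts are so alike, reads can be assigned to the wrong copy. The first 150 coding bases of each are shown, from the GENCODE M21 transcripts, with the positions at which the copies differ in capitals.

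Lyz1: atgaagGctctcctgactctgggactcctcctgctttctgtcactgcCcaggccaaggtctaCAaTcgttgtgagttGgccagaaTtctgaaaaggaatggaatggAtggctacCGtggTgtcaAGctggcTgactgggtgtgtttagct
Lyz2: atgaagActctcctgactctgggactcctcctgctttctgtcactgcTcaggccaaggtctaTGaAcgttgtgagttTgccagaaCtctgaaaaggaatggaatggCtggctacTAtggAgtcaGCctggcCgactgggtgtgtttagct

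In this stretch the copies differed at 14 positions, and over the whole coding sequence at 22 of 444 bases, or 12 of 148 amino acids. The longest identical coding run was 118 bases, which is longer than a read. Over the whole transcripts, 127 windows of 60 bases, the read length, were identical between the copies, which is 10.5% of the windows of *Lyz1* and 10.1% of those of *Lyz2*. The remaining windows hold at least 1 difference between the copies.

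*Lyz2* was the most abundant of the 10 genes, with 2848 counts in WT and 2512 in the KO-labelled library. On the per-length scale (CPM, the counts scaled to a common total of gene counts, divided by kilobases of exon) these were levels of 375.5 and 459.2, which placed *Lyz2* at rank 80 and rank 67 of the 23384 genes with an exon length. *Lyz1* had 388 and 344 counts, levels of 53.3 and 65.5 on the same per-length scale. The shares of *Lyz1* in the counts of the pair were almost the same in both libraries, at 12.0% in WT (exact 95% interval 10.9% to 13.2%) and 12.0% in the other (10.9% to 13.3%). This share does not depend on how the libraries were scaled.

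After division by the DESeq2 size factors of the libraries, *Lyz2* had 2444 normalised read counts in WT and 2927 in the KO-labelled library. Its log2 ratio of the 2 normalised counts, each plus 1 (KO-labelled library over WT, as are all ratios below), was 0.26, with an exact 95% counting interval of 0.18 to 0.34, which is formed without the added 1. *Lyz1* had 333.0 and 400.9 normalised counts and a log2 ratio of 0.27 (0.05 to 0.48). The pair summed had 3236 and 2856 raw counts and a log2 ratio of 0.26 (0.19 to 0.33). The intervals exclude equality of the libraries, but so did those of 40.0% of all 12588 genes tested, and 22.4% of the 2519 genes with a mean of at least 100 CPM had a log2 ratio at least as far from 0 as that of *Lyz2*. *Lyz1* and *Lyz2* were 1.2-fold higher in normalised counts, within the range that many genes of these 2 libraries showed.

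**Figure D1:**
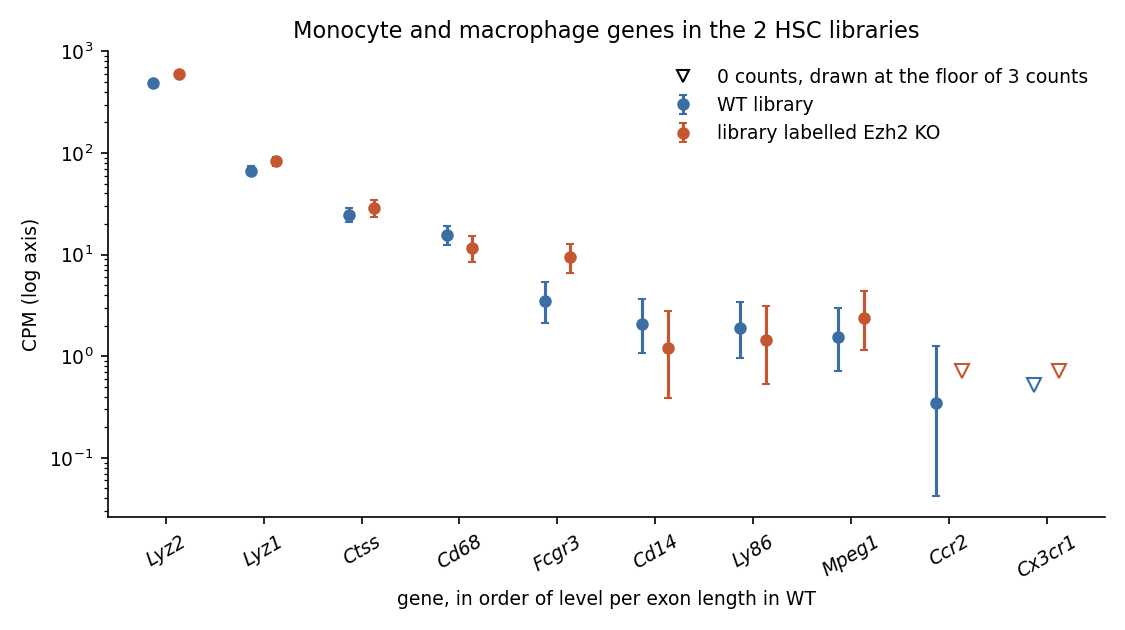
CPM (log axis) of the 10 monocyte and macrophage genes in the WT library and the KO-labelled library, with exact 95% Poisson intervals, and open triangles at the floor of 3 counts where a gene had 0 counts. *Lyz2* stood at 494.2 and 604.2 CPM, while *Ccr2* and *Cx3cr1* had at most 2 counts in either library.

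*Lyz1* and *Lyz2* together supplied 91.9% of the counts of the 10 genes in WT and 92.6% in the KO-labelled library. The summed level was 611.0 CPM (exact 95% Poisson interval 590.9 to 631.5) in WT and 741.6 CPM (715.6 to 768.2) in the other, a ratio of 1.21. Without the lysozymes the summed level was 49.5 CPM (43.9 to 55.5) and 54.6 CPM (47.7 to 62.2), a ratio of 1.10 with an interval of 0.92 to 1.32 that includes equality. In bulk RNA, fewer cells of a type and less RNA per cell cannot be told apart.

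*Ctss*, *Cd68* and *Mpeg1* act in the lysosomes and phagosomes of phagocytes. *Ctss* (chromosome 3, 95526786 to 95556403) encodes cathepsin S, the cysteine protease that trims the invariant chain of MHC class II molecules. It had 142 and 119 counts, or 121.9 and 138.7 normalised counts, with a log2 ratio of 0.19 (-0.18 to 0.55). *Cd68* (chromosome 11, 69664213 to 69666153), a heavily glycosylated membrane protein of late endosomes and lysosomes, had 89 and 48 counts, or 76.4 and 55.9 normalised counts. Its log2 ratio was -0.44 (-0.99 to 0.07), the opposite sign to *Ctss*, and neither interval excluded equality. *Mpeg1* (chromosome 19, 12460779 to 12465283) encodes perforin-2, a pore-forming protein, and was near the limit of detection with 9 and 10 counts (log2 ratio 0.54, -0.86 to 2.07).

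*Fcgr3* (chromosome 1, 171051174 to 171064935, 7 exon blocks) was the only one of the 10 genes at least 2-fold higher in the KO-labelled library, as were 4.91% of all genes tested, and none of the 10 was at least 2-fold lower, as were 3.90%. It encodes FcγRIII (CD16), the low-affinity activating receptor for IgG, which signals through the common γ chain encoded by *Fcer1g*. *Fcgr3* had 20 counts in WT and 39 in the KO-labelled library, or 17.2 and 45.4 normalised counts, 2.65-fold higher with a log2 ratio of 1.35 (0.59 to 2.26). Counts of this size were often past 2-fold in these libraries. Of the 1061 genes with a mean of 5 to 10 CPM, the class of *Fcgr3*, 10.7% were at least 2-fold higher and 8.58% at least 2-fold lower. Of the 60-base windows of *Fcgr3*, 7.85% were identical to windows of *Fcgr2b*, the inhibitory Fcγ receptor, which had 22 and 16 counts and a log2 ratio of -0.02 (-1.04 to 0.98). *Fcgr3* made up 47.6% of the counts of this receptor pair in WT (exact 95% interval 32% to 63.6%) and 70.9% in the other library (57.1% to 82.4%). The 2 intervals overlap, which does not show that the shares were equal, and the difference was not tested.

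*Cd14* and *Ly86* belong to the machinery that senses bacterial products. *Cd14* (chromosome 18, 36725067 to 36726798) is the co-receptor that hands lipopolysaccharide to TLR4, and *Ly86* (chromosome 13, 37345208 to 37419036) encodes MD-1, the partner of the TLR4-like receptor RP105. *Cd14* had 12 counts in WT and 5 in the KO-labelled library (log2 ratio -0.73, -2.68 to 0.79). *Ly86* had 11 and 6 counts (log2 ratio -0.39, -2.15 to 1.13). No difference was detected for either gene at this depth, and both intervals are wide.

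The chemokine receptors that guide monocytes were at the floor. *Ccr2* (chromosome 9, 124101950 to 124113557), the receptor by which inflammatory monocytes leave the marrow, had 2 counts in WT and 0 in the KO-labelled library. *Cx3cr1* (chromosome 9, 119901616 to 120069879), the fractalkine receptor of patrolling monocytes and tissue macrophages, had 0 counts in both. The floor of 3 counts that a count of 0 allows is 0.521 CPM in WT and 0.722 CPM in the other library, and the 2 counts of *Ccr2* in WT have an exact 95% upper limit of 1.25 CPM, so low expression of either gene is not excluded. No fold was formed for them.

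In order of level per exon length, the WT library ran from *Lyz2* through *Lyz1*, *Ctss* (18.1), *Cd68* (12.3), *Fcgr3* (2.0), *Cd14* (1.2), *Ly86* (0.53) and *Mpeg1* (0.36) to *Ccr2* (0.05), with *Cx3cr1* at 0. The 4 most abundant were separated from each other, and *Cd68* from *Fcgr3*, beyond their counting intervals, while from *Fcgr3* downwards each neighbouring pair had overlapping intervals. In the KO-labelled library the order was the same except that *Mpeg1* (0.56) stood above *Ly86* (0.40), and those were not separated by their intervals in either library. There *Fcgr3* (5.40) was separated from *Cd14* (0.69), and its interval overlapped that of *Cd68* (9.19).

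Of the 10 genes, 8 passed the filter of a mean of at least 1 CPM, and *Ccr2* and *Cx3cr1* did not. Of these 8, 1 gene (*Fcgr3*) was at least 2-fold higher and 0 were at least 2-fold lower, beside the shares of 4.91% and 3.90% for the 12588 genes tested. When the counting interval also had to exclude equality, the background was 4.09% higher and 3.27% lower, and the count was again 1 and 0. The median log2 ratio of the 8 genes was 0.22, with 5 above 0 and 3 below, beside a median of -0.003 and 49.6% above 0 for all genes tested. Without *Lyz1* and *Lyz2* the median of the other 6 was -0.10, a setting chosen after the values were seen. With the pair summed as 1 gene it was 0.19.

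**Figure D2:**
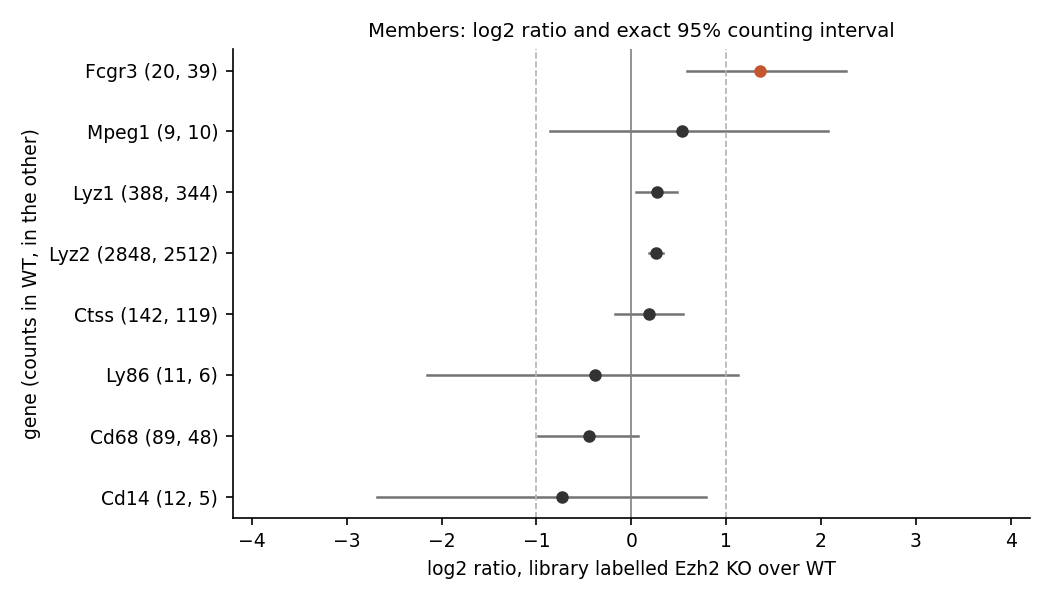
Log2 ratio (KO-labelled library over WT) of the 8 genes with a mean of at least 1 CPM, with exact 95% counting intervals, raw counts in brackets and dashed lines at 2-fold. *Fcgr3*, at 1.35, was past the 2-fold line, and the intervals of *Lyz1*, *Lyz2* and *Fcgr3* excluded 0.

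**Figure D3:**
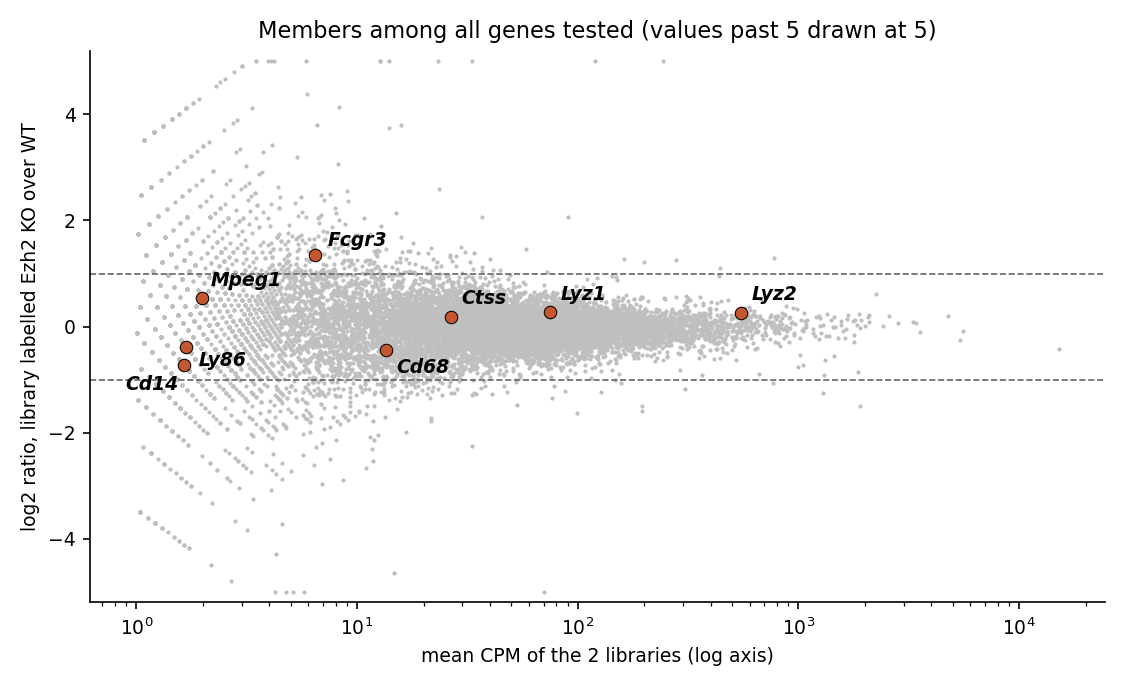
Log2 ratio against mean CPM (log axis) for all 12588 genes tested (grey) and the 8 monocyte and macrophage genes (orange), with dashed lines at 2-fold. The grey cloud widens towards low CPM, where *Cd14*, *Ly86*, *Mpeg1* and *Fcgr3* lie, and *Lyz2* lies above the centre of a narrow cloud at 549.2 CPM.

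The products of these genes work with ligands, co-receptors and neighbours in the lysosome, and 25 such partners were listed, of which 18 were tested. None was at least 2-fold higher (background 4.91%) and 1 was at least 2-fold lower (background 3.90%), and the median log2 ratio was 0.02. The gene past 2-fold was *Lgmn*, which encodes the lysosomal protease legumain and had 32 and 6 counts (log2 ratio -1.83, -3.52 to -0.70). It was named after its value was seen. *Fcer1g*, the signalling chain of *Fcgr3*, had 121 and 170 counts, or 103.8 and 198.1 normalised counts (log2 ratio 0.93, 0.59 to 1.28), just inside the 2-fold line and of the same sign as *Fcgr3*. *Fcgr3* was 14.2% of the counts of the 2 genes in WT (8.88% to 21.1%) and 18.7% in the other library (13.6% to 24.6%). *Fcgr1*, the high-affinity IgG receptor of macrophages, had 0 and 1 counts.

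In the lipopolysaccharide and RP105 branch, 2 genes had intervals that excluded equality, as did 40.0% of all genes tested. Both were higher in the KO-labelled library and within 2-fold. *Ly96*, *Cd14* and *Ly86* had ratios below 0, with intervals that included equality. *Tlr4* had 132 and 141 counts (log2 ratio 0.53, 0.18 to 0.89). *Lbp*, which encodes the lipopolysaccharide-binding protein and was named after its value was seen, had 596 and 530 (log2 ratio 0.27, 0.10 to 0.44). *Ly96*, which encodes the TLR4 partner MD-2, had 53 and 27 (log2 ratio -0.52, -1.26 to 0.16). *Cd180*, which encodes RP105 itself, had 3 and 1 counts, so the receptor that *Ly86* serves was at the floor in both libraries. In the antigen-processing branch that holds *Ctss*, the invariant chain gene *Cd74* had 6892 and 3516 counts (log2 ratio -0.53, -0.59 to -0.47). *Cst3*, which encodes the cathepsin inhibitor cystatin C, had 1634 and 1483 counts (log2 ratio 0.30, 0.20 to 0.40). Both lay within 2-fold, as did *Ctss*.

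**Figure D4:**
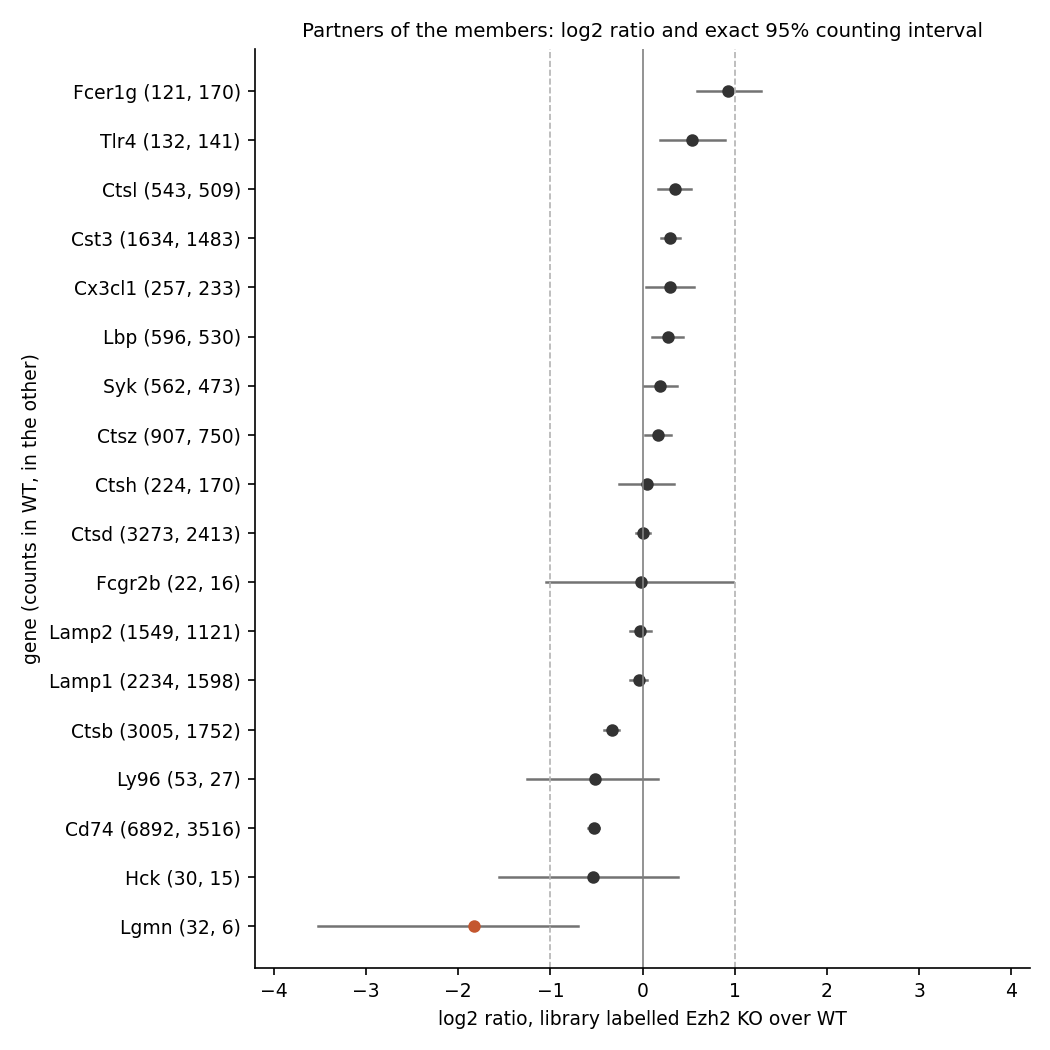
Log2 ratio (KO-labelled library over WT) of the 18 tested partner genes with exact 95% counting intervals, raw counts in brackets and dashed lines at 2-fold. *Fcer1g* was the highest at 0.93, and *Lgmn*, at -1.83, was past the line.

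A wider list of 37 monocyte and macrophage genes held 23 that were tested. Of these, 7 were at least 2-fold higher (background 4.91%), 3 at least 2-fold lower (background 3.90%) and 13 within 2-fold, with a median log2 ratio of 0.33. The 3 lower genes and 3 of the higher ones had a mean of 1 to 5 CPM, where 22.0% of the 1857 genes tested were at least 2-fold higher and 15.3% lower. Of these, *Adgre1*, *Mrc1* (2 and 9 counts) and *F13a1* (15 and 0 counts) passed the filter only through the library where they were higher. Defining genes of the lineage gave ratios of both signs. *Csf1r*, the receptor for the macrophage growth factor M-CSF, had 24 and 5 counts (log2 ratio -1.66, -3.57 to -0.40). *Adgre1*, which encodes the macrophage antigen F4/80, had 0 and 9 counts, 4.07-fold higher with WT set at the floor of 3 counts (lower limit of the log2 counting interval 1.42). *Ly6c2*, the antigen of classical monocytes, had 101 and 86 counts (log2 ratio 0.21, -0.22 to 0.64).

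The more abundant genes past 2-fold in the wider list were all higher in the KO-labelled library. *Itgam*, which encodes CD11b, had 73 and 131 counts (log2 ratio 1.27, 0.86 to 1.72). *Cybb*, which encodes the catalytic subunit of the phagocyte NADPH oxidase, had 95 and 187 (log2 ratio 1.41, 1.05 to 1.79). *Tyrobp*, which encodes the signalling adaptor DAP12, had 40 and 63 (log2 ratio 1.07, 0.50 to 1.71), and *C1qb*, a chain of complement C1q, had 33 and 59 (log2 ratio 1.25, 0.64 to 1.94). *Itgam*, *Cybb* and *Tyrobp* are known to be expressed by neutrophils as well as by monocytes. The 2 other chains of C1q, *C1qa* with 30 and 28 counts (log2 ratio 0.33) and *C1qc* with 51 and 41 (log2 ratio 0.12), lay within 2-fold. *C1qa* and *C1qc* were named after their values were seen.

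The transcription factors listed as monocyte regulators, which also include broader blood factors such as *Gfi1* and *Runx1*, showed no common direction. Of the 16, 0 were at least 2-fold higher (background 4.91%) and 2 lower (background 3.90%), with a median log2 ratio of -0.08. *Spi1* (PU.1), the master factor of the myeloid lineage, had 772 and 553 counts (log2 ratio -0.04, -0.20 to 0.12). *Irf8*, needed for monocyte fate, had 72 and 70 (log2 ratio 0.40, -0.09 to 0.90), and *Klf4* had 24 and 12 (log2 ratio -0.53, -1.69 to 0.50). The factors past 2-fold were *Nr4a1* and *Egr2*. *Nr4a1*, which maintains patrolling monocytes and is also an immediate-early gene, had 1651 and 431 counts (log2 ratio -1.49, -1.65 to -1.34). *Egr2*, another early gene, had 18 and 0 counts, 4.42-fold lower with the KO-labelled library set at the floor of 3 counts (upper limit of the log2 counting interval -1.69). *Egr2* was named after its value was seen. It passed the filter only through WT. Its mean was 1 to 5 CPM, where 15.3% of the genes tested were at least 2-fold lower.

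Markers of other blood cells moved between the libraries beside *Fcgr3*, *Itgam*, *Cybb* and the lysozymes, and their part in those differences was not tested. Of 17 neutrophil genes 16 were in the files and tested, and all 16 had a log2 ratio above 0 (0.15 to 3.71, median 1.17), beside 49.6% of all genes tested. At least 2-fold higher were 11 of them (background 4.91%), and the summed level of the 16 was 1503.9 CPM in WT and 3472.0 CPM in the other library, a ratio of 2.31. Among them, *Ngp*, a protein of neutrophil secondary granules, had 2549 and 4621 counts, and *Cd177*, a neutrophil surface antigen, had 176 and 360. The 6 primary granule genes, which mark earlier granulocyte precursors, had summed levels of 801.1 and 821.2 CPM. Of these, 0 were past 2-fold (background 4.91% higher and 3.90% lower), and the median log2 ratio was 0.10, with members in both directions. *Mpo*, which encodes myeloperoxidase, had a log2 ratio of 0.22, and *Elane*, which encodes neutrophil elastase, had 860 and 374 counts and a log2 ratio of -0.76 (-0.94 to -0.58). *Elane* was named after its value was seen. Of 10 eosinophil genes 7 were tested and all 7 were at least 2-fold higher (background 4.91%). The filter is on the mean of both libraries, and genes such as *Ear2*, with 0 and 10 counts, passed it only through the KO-labelled library. The 3 not tested were *Siglecf* and *Ccr3*, each with 5 and 4 counts, and *Alox15* with 4 and 0. The summed level of all 10 eosinophil genes was 2.78 and 781.8 CPM, led by *Prg2* and *Epx* with 0 counts in WT and 2030 and 1000 in the other library. *Prg2* was thus 919-fold higher with WT set at the floor of 3 counts (lower limit of the log2 counting interval 9.54).

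Beside the neutrophil ratio of 2.31, the ratio of summed levels of the 10 monocyte and macrophage genes was 1.21, most of it from the lysozymes. Of the dendritic cell genes 8 of 14 were tested, with 1 at least 2-fold higher (background 4.91%), 0 lower (background 3.90%) and a median of 0.07. This median covers both directions. The intervals of 2 lay above equality, *Flt3* (log2 ratio 0.95) and *Clec9a* (1.46). Those of 3 lay below it, *H2-Ab1* (-0.36), *H2-Aa* (-0.47) and *H2-Eb1* (-0.47, named after its value was seen). Of all genes tested, 40.0% had intervals that excluded equality. *Cd209a*, *Itgae* and *Batf3* were at 0 in both libraries. Lymphoid genes (8 of 12 tested) had 5 at least 2-fold higher (background 4.91%) and 1 lower (background 3.90%), with a summed level of 88.7 and 127.0 CPM. Among the higher ones, *Igll1*, *Cd3g* and *Il2rb* had 0 counts in WT and 29, 9 and 34 in the other library, through which alone they passed the filter. They had a mean of 1 to 5 CPM, where 22.0% of the genes tested were at least 2-fold higher. *Cd79a*, with 21 and 53 counts, and *Vpreb1*, with 5 and 41, were also higher. Their means were 5 to 10 CPM, where 10.7% were at least 2-fold higher. The lower gene was *Klrb1c*, with 116 and 14 counts (log2 ratio -2.54, -3.52 to -1.80). Differences between lists were not tested, since the lists share the same 2 libraries.

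**Figure D5:**
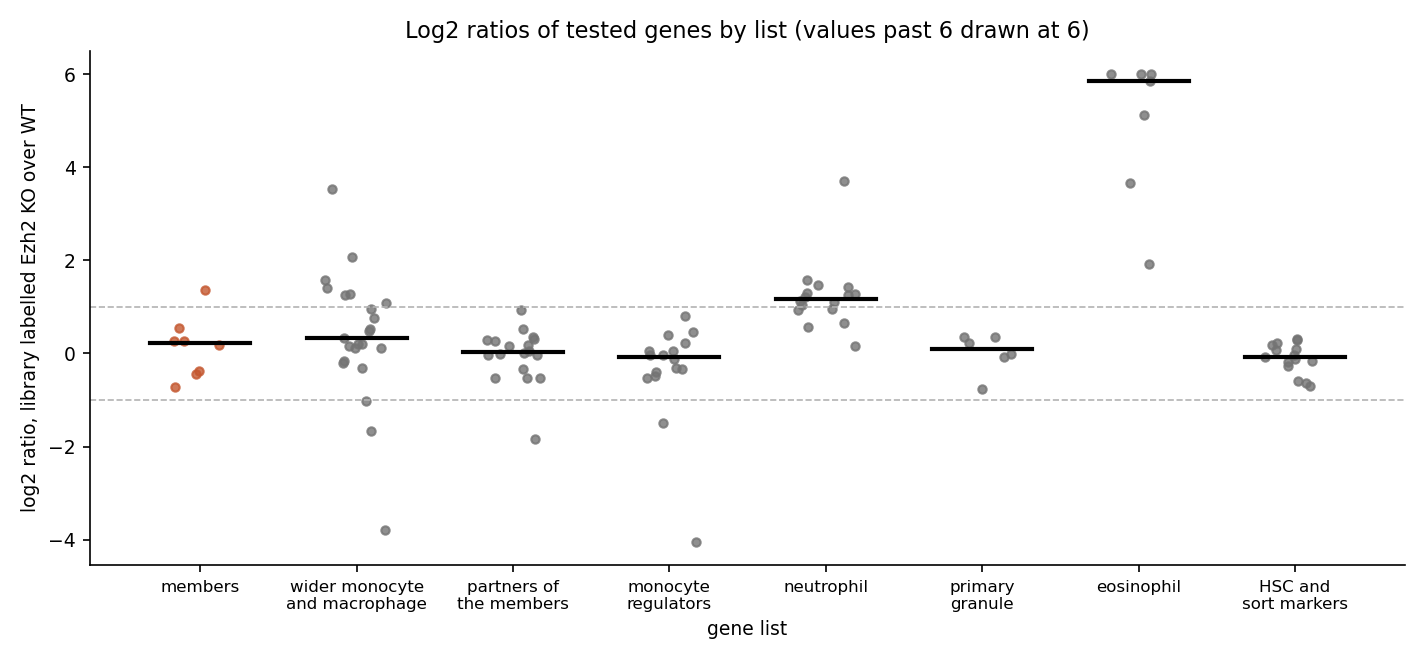
Log2 ratio (KO-labelled library over WT) of each tested gene by list, with a bar at the median of the list and dashed lines at 2-fold; values past 6 are drawn at 6, and genes at 0 in 1 library depend on the added count of 1. The 8 monocyte and macrophage genes (orange) had a median of 0.22, against 1.17 for the neutrophil and 5.86 for the eosinophil genes.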

How the data were processed

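Per the labels and methods, single-end reads were aligned by the authors to mm10 with TopHat2 2.0.13 and Bowtie2 2.1.0, and StringTie is named for counting. The deposited values are raw counts per gene symbol with 5 closing entries that name no gene (56.1% of all entries in WT and 56.9% in the KO-labelled library), whose names are those of htseq-count, so the counter and its use of strand are not settled. Those entries were left out of totals. Counts were scaled by DESeq2 1.42.0 size factors (1.17 for WT and 0.858). Ratios used a pseudocount of 1, a filter of at least 1 mean CPM and a threshold of 2-fold. Intervals are exact 95% Clopper-Pearson (ratios, shares) or Poisson (levels). With 1 library per group neither edgeR nor DESeq2 can estimate a spread, so no test was fitted and no p-value was computed. The depth sets 1 count at 0.174 CPM in WT and 0.241 CPM in the other library. Positions, exon lengths (95.8% of symbols matched) and transcripts came from GENCODE M21 (GRCm38). Overlap with the exons of other genes was 0 bases for 9 of the 10 genes and 1.73% for *Cx3cr1*. The 10 genes, the lists and the alternatives were chosen with earlier results of these data known. Genes named beside the 10 were *Ezh2*, chosen defining markers, regulators and partners, the 2 most abundant of a list, and list genes past 2-fold with an interval excluding equality and a mean of at least 5 CPM. Not all genes so selected are described, and 1 is not reported here. Others are named for the sort, the sex check, shared sequence, counts of 0 or a level under the filter, or are marked in the text. The calculation was tested on simulated data. Tools were R 4.3.3, edgeR 4.0.16 and, under Python 3.11.15, scipy 1.17.1, numpy 2.4.6, Biopython 1.88, matplotlib 3.10.9 and pandas 2.3.3.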

Additional observations from a re-analysis of the deposited data

Results flagged for a closer look

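Reads with more than 1 alignment enter no gene count and so lie outside every comparison above. They made up 12.27% of all entries in the KO-labelled library (95% Wilson interval 12.25% to 12.29%) and 10.75% in WT (10.73% to 10.77%), above the level in the control library. Reads from windows that *Lyz1* and *Lyz2* share would fall in this entry, but it is given as 1 total per library, so their number was not measured.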

How the results depend on the processing

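No paired analysis was possible because the groups hold 1 library each. Pseudocounts of 0.5 and 5, scaling by TMM or by total counts, and thinning of the WT library kept *Fcgr3* as the only one of the 10 genes past 2-fold (log2 ratio 1.14 to 1.38), and kept the sign of each of the 8 log2 ratios and of their median (0.22 to 0.25), although thinning brought *Ly86* from -0.39 to -0.01. The median of the wider genes was 0.44 when thinned and 0.21 at a minimum of 10 CPM, and that of the partners 0.18 at 10 CPM. The median of the 8 was 0.19 with the lysozymes summed and became -0.10 without *Lyz1* and *Lyz2* (chosen after seeing the data), and the ratio of summed levels became 1.10 in place of 1.21. With no minimum level, 1 of the 10 was lower (*Ccr2*, with 2 and 0 counts), 12 wider monocyte and macrophage genes were higher, and 4 partners were higher and 2 lower. The partners gained there, such as *Ccl2* with 0 and 3 counts, had no more than 3 counts in either library. With a minimum mean of 10 CPM, which removes *Fcgr3*, 0 of the 10 were higher, 3 wider genes were higher and 0 lower, 0 partners were lower and 1 regulator was lower. At 1.5-fold 1 of the 10 was lower (*Cd14*), 1 partner was higher and 1 regulator was higher. At 4-fold 0 of the 10 were higher, 2 wider genes were higher and 1 lower, 0 partners were lower and 1 regulator was lower. The shares of 4.91% and 3.90% of all genes hold only for 2-fold at a minimum mean of 1 CPM. Shares at the other minimum levels and folds are not given, so these counts stand without a background. The longest transcript in place of merged exons left the order of levels as it was in both libraries. Depth limits *Cd14*, *Ly86*, *Mpeg1*, *Ccr2* and *Cx3cr1*, each with at most 12 counts in a library.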
